A study of Homo sapiens with 4 samples.

Results

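The clustered protocadherins are 3 neighbouring groups of cell-surface genes, alpha, beta and gamma, on the plus strand of human chromosome 5 (GRCh38, chr5:140786136-141512981). They were taken as every gene of the deposited stranded count table that is named PCDHA, PCDHB or PCDHG and lies on that chromosome. This gave 59 of 60651 genes: 16 alpha, 19 beta and 24 gamma genes, of which 6 are not annotated as protein coding. RNA was sequenced from KP4, a human pancreatic ductal adenocarcinoma line. The 4 groups were E5 cells given FOLFIRINOX, E5 cells given vehicle, control cells given FOLFIRINOX and control cells given vehicle. FOLFIRINOX was a mixture of 25 nM SN-38, which is the active form of irinotecan, 10 µM of an agent the labels write as 5-F, and 5 µM oxaliplatin, for 96 h. Vehicle was DMSO for the same 96 h. The series' title calls the non-control cells resistant to FOLFIRINOX, and its design text speaks of cells taken through 5 cycles of treatment. What the cells of the E5 vehicle sample had met before the last exposure is not spelled out. All cells are KP4, kept in DMEM with serum, and no clone, transgene or sort is named.

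Each group is 1 GEO sample with 3 numbered libraries, 12 libraries in all. Whether the 3 came from separate cultures is not given, so the p-values measure the spread between these libraries only, which may be technical. The libraries held 7359034 to 21775030 reads assigned to genes. Libraries of one group differed from each other by 1.46 to 13.3 times the variance of counting alone, so none was a second copy of another. KP4 is a line of ductal origin, and of its 8 epithelial markers none was at 0 in all libraries. KRT18, a keratin of simple epithelia, averaged 622 CPM (reads per 1000000 assigned reads) in E5 FOLFIRINOX, 530.1 CPM in E5 vehicle, 367.4 CPM in control FOLFIRINOX and 171.1 CPM in control vehicle. EPCAM and CDH1, which define epithelial cells, stayed between 0.291 and 1.92 CPM in the same groups. The acinar markers PRSS1, CPA1 and CELA3A and the lymphocyte marker CD3E were at 0 counts.

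Clustered protocadherins are cadherin-like adhesion proteins best known from neurons, where each cell uses its own small selection of them and the selection serves as a label by which the branches of one neuron recognise each other. In the alpha and gamma clusters each gene is a large variable first exon with its own promoter, spliced to constant exons that the whole cluster shares, whereas each beta gene is a single exon. The last 2 alpha genes, PCDHAC1 and PCDHAC2, and the last 3 gamma genes, PCDHGC3, PCDHGC4 and PCDHGC5, are the C-type genes, which many neurons use together rather than by choice. The choice of promoter rests on CTCF and cohesin, which bind a short conserved element just upstream of most first exons and bring it to distant enhancers. DNA methylation keeps unused promoters silent.

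Members have promoters of their own, so the stretch around the core CGCT of that element is shown for the 13 members that later passed the filter on counts. RefSeq (GRCh38.p14) lists a promoter for 47 of the 59 members. The letters CGCT, on either strand, stood in 12 of 13 alpha, 14 of 14 beta and 20 of 20 gamma promoters, but also in 70.0% of all 35116 promoters of the same length. Longer forms, read off these promoters and searched on both strands, were rarer. GATGTCGCT stood in 9 of 13 alpha promoters and 0.105% of all promoters. GGTGGCGCT stood in 13 of 14 beta promoters and 0.501% of all, and GNCGCTGT in 17 of 20 gamma promoters and 4.35% of all. GNCGCTGT also stood in 5 of 13 alpha promoters and 1 of 14 beta promoters, so it is not particular to the gamma cluster. GATGTCGCT and GGTGGCGCT stood in 0 promoters of the other clusters. The forms overlap in the core, and a match is a description of letters and shows no binding. Each window of 40 bases is given 5′ to 3′ on the plus strand with the core in capitals.
PCDHA12 (chr5:140875240-140875279): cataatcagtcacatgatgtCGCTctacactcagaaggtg
PCDHAC1 (chr5:140926216-140926255): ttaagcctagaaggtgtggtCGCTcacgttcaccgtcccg
PCDHAC2 (chr5:140966361-140966400): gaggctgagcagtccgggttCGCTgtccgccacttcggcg
PCDHB10 (chr5:141192295-141192334): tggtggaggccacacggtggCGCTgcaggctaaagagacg
PCDHB13 (chr5:141213861-141213900): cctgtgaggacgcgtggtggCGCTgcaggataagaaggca
PCDHB14 (chr5:141223259-141223298): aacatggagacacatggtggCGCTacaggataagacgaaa
PCDHGB2 (chr5:141359917-141359956): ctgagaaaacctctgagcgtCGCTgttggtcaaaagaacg
PCDHGA5 (chr5:141364103-141364142): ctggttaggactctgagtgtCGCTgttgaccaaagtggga
PCDHGB3 (chr5:141370158-141370197): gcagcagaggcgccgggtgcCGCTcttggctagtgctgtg
PCDHGA6 (chr5:141373831-141373870): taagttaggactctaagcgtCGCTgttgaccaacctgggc
PCDHGA7 (chr5:141382645-141382684): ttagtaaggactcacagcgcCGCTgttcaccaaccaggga
PCDHGB5 (chr5:141397859-141397898): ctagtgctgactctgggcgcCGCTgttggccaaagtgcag
PCDHGC3 (chr5:141475876-141475915): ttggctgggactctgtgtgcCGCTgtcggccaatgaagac

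Of the 12 alpha promoters with the core, 9 matched all 9 letters of the alpha form, PCDHA12 among them. PCDHA11 matched 8, PCDHAC1 matched 7 and PCDHAC2 matched 6 of the 9 letters, so the capitals in those promoters mark the letters CGCT and no more. PCDHGC3 matched all 7 fixed letters of the gamma form, as did PCDHGB2, PCDHGA5, PCDHGA6, PCDHGA7 and PCDHGB5, and PCDHGB3 matched 6 of them. The whole 250 bases before the RefSeq start are given for PCDHAC1 and PCDHGB2, the alpha and the gamma member on which the results below turn, with the same core in capitals. In the deposited coordinates PCDHGB2 starts at chr5:141360042, so the end of its stretch lies inside the gene as counted. Its core stands at -199 from the RefSeq start, against -63 for PCDHAC1.
PCDHAC1 (chr5:140926049-140926298, plus strand): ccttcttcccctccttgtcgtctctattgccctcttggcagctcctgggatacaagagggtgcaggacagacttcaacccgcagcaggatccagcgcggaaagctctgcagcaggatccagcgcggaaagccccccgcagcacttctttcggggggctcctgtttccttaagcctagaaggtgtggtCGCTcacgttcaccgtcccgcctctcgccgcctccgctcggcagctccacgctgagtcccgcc
PCDHGB2 (chr5:141359886-141360135, plus strand): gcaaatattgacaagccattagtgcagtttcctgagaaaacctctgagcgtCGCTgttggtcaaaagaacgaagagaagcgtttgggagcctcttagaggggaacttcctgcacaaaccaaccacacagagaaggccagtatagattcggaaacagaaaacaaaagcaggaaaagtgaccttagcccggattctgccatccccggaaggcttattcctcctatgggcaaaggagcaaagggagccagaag

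The shared exons limit what a count per gene can hold here. In the GENCODE v29 annotation, in which all 59 members were found and 20 had the same coordinates as in the deposited table, members differed by cluster. A median of 46.6% of an alpha member's exon bases and 43.8% of a gamma member's lay in exons of another gene on the same strand, against 0% for a beta member. A read inside those bases belongs to several genes, and the deposited table keeps ambiguous reads in a row of their own. The first exons also resemble each other: 24.7% of all 100-base stretches in the unshared exons of PCDHB10, 15.1% in PCDHB13, 15.3% in PCDHGB5 and 8.64% in PCDHGB2 stood in another member as well, and 0% in PCDHAC1, PCDHGA7 and PCDHGC3. Values of such near copies are uncertain to that extent.

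Clustered protocadherin RNA was scarce in KP4. Of the 59 members 57 had at least 1 count in the 12 libraries, PCDHA14 and PCDHB17P had none, and 31 had fewer than 20 counts in all libraries together. At least 1 count was found for 44 members in E5 FOLFIRINOX, 45 in E5 vehicle, 49 in control FOLFIRINOX and 51 in control vehicle. All members summed to 22.5 ± 0.75 CPM in E5 FOLFIRINOX, 27.7 ± 2.5 CPM in E5 vehicle, 23.5 ± 0.28 CPM in control FOLFIRINOX and 43.6 ± 4.7 CPM in control vehicle (SD, n = 3 libraries each), as CPM with library sizes scaled by TMM, edgeR's correction for composition. The sums behaved differently in the 3 clusters. In such bulk RNA, fewer cells that use a gene and less of its RNA per cell cannot be told apart.

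**Figure D1:**
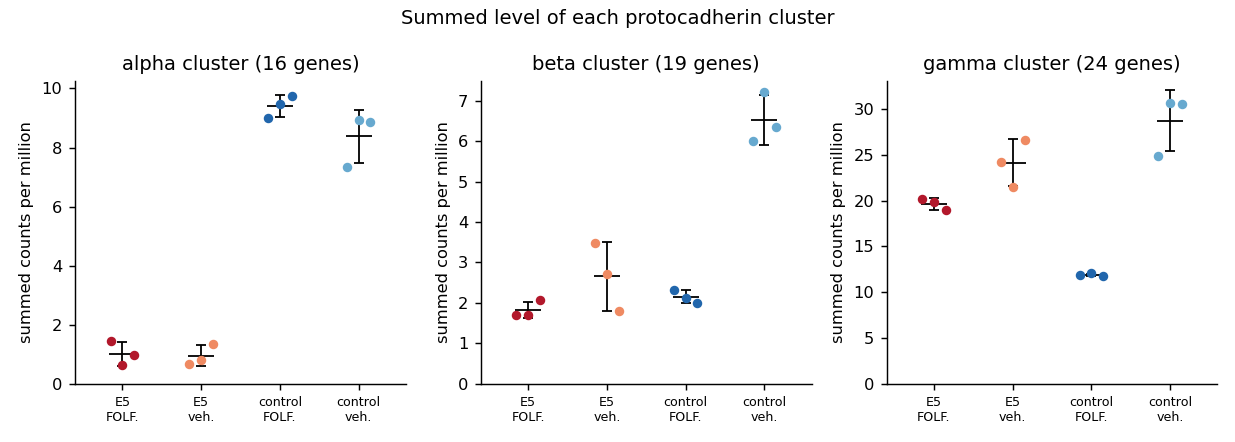
Summed level of the alpha, beta and gamma cluster in each library, in TMM-scaled CPM on the vertical axis, with E5 FOLFIRINOX, E5 vehicle, control FOLFIRINOX and control vehicle on the horizontal axis; points are libraries and lines are the means with SD (n = 3). The alpha sums lay between 0.641 and 1.45 CPM in E5 libraries and between 7.34 and 9.76 CPM in control libraries, whereas the lowest gamma sums, 11.8 to 12.1 CPM, were those of control FOLFIRINOX.

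E5 cells held far less alpha RNA than control cells, with FOLFIRINOX and with vehicle. The summed alpha level was 1.45, 0.641 and 0.966 CPM in the libraries of E5 FOLFIRINOX and 0.670, 0.817 and 1.36 CPM in E5 vehicle. Control cells had 9.0, 9.48 and 9.76 CPM with FOLFIRINOX and 7.34, 8.93 and 8.87 CPM with vehicle. Every E5 library lay under every control library, and the ratio of the means was 8.82-fold lower in E5 than in control cells under vehicle and 9.25-fold lower under FOLFIRINOX. The difference was smaller in the authors' FPKM, whose alpha sums averaged 0.657 ± 0.076 in E5 vehicle and 3.41 ± 0.36 in control vehicle (SD, n = 3), a log2 ratio of -2.38 against -3.14 from the counts. Between FOLFIRINOX and vehicle the alpha means differed by 1.07-fold in E5 and 1.12-fold in control cells, with overlapping libraries in E5 only. A leukocyte marker moved between the lines as well: of PTPRC, CD3E, CD14 and LYZ, CD3E was at 0, and the sum of these markers averaged 0.523 ± 0.17 CPM in E5 FOLFIRINOX, 0.427 ± 0.14 CPM in E5 vehicle, 11.8 ± 2.1 CPM in control FOLFIRINOX and 52.2 ± 3.1 CPM in control vehicle. Nearly all of the control sums was PTPRC, and the 8 epithelial markers summed to 952.3 ± 50.3, 892.1 ± 49.3, 514.4 ± 29.5 and 260.2 ± 16.9 CPM in the same order. Most of those sums was KRT18 and KRT8, the latter at 182.9, 240.3, 58.7 and 31.8 CPM. EPCAM went the other way, with 0.445, 0.291, 1.20 and 0.599 CPM. The 5 mesenchymal markers summed to 2162 ± 58.0, 3020 ± 79.1, 2291 ± 70.5 and 2671 ± 121.5 CPM. VIM gave 1996, 2873, 2094 and 2473 CPM of these. The part of these wider line differences in the alpha result was not tested.

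By counts, PCDHAC1 (chr5:140926299-141012347), a C-type gene, made up most of this. It had 0.465, 0.427 and 0.322 CPM in E5 FOLFIRINOX and 0, 0.126 and 0.255 CPM in E5 vehicle. Control cells had 6.69, 6.35 and 7.47 CPM with FOLFIRINOX and 3.78, 5.11 and 4.46 CPM with vehicle. The 4 groups did not overlap. E5 was lower than control by a log2 fold change of -4.92 ± 0.35 under vehicle (± SE here and below; adjusted p = 3.3e-09) and of -4.04 ± 0.24 under FOLFIRINOX (adjusted p = 2.8e-10), from edgeR's quasi-likelihood test with Benjamini-Hochberg adjustment over the 15636 genes tested. This test and adjustment stand behind every adjusted p below unless another is named, and a gene is called at an adjusted p under 0.05. FOLFIRINOX raised PCDHAC1 by 0.58 ± 0.15 in control cells (adjusted p = 0.0028). In E5 cells the change was 1.47 ± 0.59 (adjusted p = 0.045), which rests on 20 counts in E5 FOLFIRINOX against 5 in E5 vehicle. That call was lost without any one of control FOLFIRINOX 1, control vehicle 3, E5 FOLFIRINOX 1, E5 FOLFIRINOX 2, E5 vehicle 1 and E5 vehicle 2. Over all single left-out libraries the log2 change was 1.14 to 2.15 and the adjusted p reached 0.15. The call was also lost with DESeq2, the block of library numbers, no filter and the authors' FPKM and rlog values. For this gene the responses of E5 and control cells were not shown to differ (difference 0.89 ± 0.61, adjusted p = 0.31). The authors' FPKM gave a larger part of the alpha level to PCDHAC2. Under vehicle PCDHAC1 averaged 0.0367 FPKM in E5 and 0.91 FPKM in control cells, and PCDHAC2 averaged 0.387 and 1.51 FPKM.

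The other tested alpha genes differed between the lines as well. PCDHAC2, the second C-type gene, had 0.258, 0.0712 and 0.0644 CPM in E5 FOLFIRINOX and 0.268, 0.126 and 0.340 CPM in E5 vehicle. Control cells had 1.16, 1.49 and 0.948 CPM with FOLFIRINOX and 1.11, 1.58 and 1.60 CPM with vehicle. All E5 libraries were below all control libraries, by a log2 fold change of -2.66 ± 0.43 under vehicle (adjusted p = 7.3e-05) and of -3.02 ± 0.45 under FOLFIRINOX (adjusted p = 2.4e-05). PCDHA12, a variable alpha gene, had 0.0517, 0 and 0.193 CPM in E5 FOLFIRINOX and 0, 0.126 and 0 CPM in E5 vehicle. Control cells had 0.643, 1.09 and 0.781 CPM with FOLFIRINOX and 0.667, 1.19 and 1.14 CPM with vehicle. With 2 counts in E5 vehicle against 51 in control vehicle, it was lower in E5 by a ratio of 18.9 with a 95% counting interval of 4.97 to 160.2 (adjusted p = 0.00012), an interval that covers counting error only. Under FOLFIRINOX its log2 fold change was -3.31 ± 0.60 (adjusted p = 0.00017). The drug changed neither gene beyond the spread of the libraries, with log2 changes of -0.29 ± 0.27 for PCDHAC2 (adjusted p = 0.37) and -0.26 ± 0.35 for PCDHA12 (adjusted p = 0.52) in control cells. These 3 genes passed the filter through the control groups only and so had to differ between the lines. The sum over all 16 alpha genes, which uses no filter, is the fuller measure. Without the C-type genes the alpha sum averaged 0.482 CPM in E5 FOLFIRINOX, 0.578 CPM in E5 vehicle, 1.38 CPM in control FOLFIRINOX and 2.5 CPM in control vehicle. The C-type genes alone were 14.99-fold lower in E5 than control under FOLFIRINOX and 15.8-fold lower under vehicle.

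The beta genes were highest in untreated control cells. Their sum was 1.71, 1.71 and 2.06 CPM in E5 FOLFIRINOX and 3.48, 2.70 and 1.79 CPM in E5 vehicle. Control cells had 2.32, 2.13 and 2.01 CPM with FOLFIRINOX and 6.01, 7.21 and 6.35 CPM with vehicle. The 3 control vehicle libraries lay above all others, which overlapped each other. The mean was 3.03-fold lower with FOLFIRINOX than with vehicle in control cells, and 2.45-fold lower in E5 than in control cells under vehicle. In E5 cells the ratio of FOLFIRINOX to vehicle was 1.46-fold lower and the libraries overlapped.

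The 3 beta genes with enough counts to be tested were highest in control vehicle as well. PCDHB14 had 0.310, 0.570 and 0.644 CPM in E5 FOLFIRINOX and 1.21, 0.314 and 0.255 CPM in E5 vehicle. Control cells had 0.643, 0.397 and 0.167 CPM with FOLFIRINOX and 1.78, 1.86 and 1.60 CPM with vehicle. Control vehicle stood above the other 9 libraries, and 1 E5 vehicle library was far from its 2 fellows. FOLFIRINOX lowered it in control cells by 2.29 ± 0.42 on the log2 scale (adjusted p = 0.00013), and its log2 change in E5 cells was 0.01 ± 0.53 (adjusted p = 0.99). PCDHB13 had 0.413, 0.285 and 0.322 CPM in E5 FOLFIRINOX, 0.402, 0.251 and 0.170 CPM in E5 vehicle, 0.643, 0.198 and 0.446 CPM in control FOLFIRINOX and 0.890, 1.43 and 1.09 CPM in control vehicle. PCDHB10 had 0.310, 0.214 and 0.451 CPM in E5 FOLFIRINOX, 0, 0.251 and 0.255 CPM in E5 vehicle, 0.257, 0.347 and 0.223 CPM in control FOLFIRINOX and 0.667, 0.716 and 0.801 CPM in control vehicle. Again the control vehicle libraries were the highest for both genes. With FOLFIRINOX the control cells' log2 fold change was -1.65 ± 0.36 for PCDHB13 (adjusted p = 0.00069) and -1.36 ± 0.41 for PCDHB10 (adjusted p = 0.0083; 0.056 with DESeq2). Under vehicle, E5 was lower than control by log2 fold changes of -1.82 ± 0.42 for PCDHB14 (adjusted p = 0.0019), -2.18 ± 0.42 for PCDHB13 (adjusted p = 0.00045) and -1.85 ± 0.48 for PCDHB10 (adjusted p = 0.0048). Only control vehicle had all 3 libraries of these genes above the filter, which favours lower values elsewhere, and the sum over the 19 genes carries the statement.

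The gamma genes, the largest share of clustered protocadherin counts, had the lowest sum in FOLFIRINOX-treated control cells. Their sum was 20.2, 19.9 and 18.9 CPM in E5 FOLFIRINOX and 24.2, 21.5 and 26.6 CPM in E5 vehicle. Control cells had 11.8, 12.1 and 11.8 CPM with FOLFIRINOX and 24.9, 30.7 and 30.6 CPM with vehicle. Each drug-treated group lay below its own vehicle group with no overlap, while the 2 vehicle groups overlapped. FOLFIRINOX went with a 2.42-fold lower mean in control cells and a 1.23-fold lower mean in E5 cells, so that under the drug E5 was 1.65-fold above control. The lines' drug ratios lay closer together in the authors' FPKM. There the log2 ratios of the gamma sums were -1.06 in control and -0.57 in E5 cells, against -1.27 and -0.29 from the counts. Markers of neurons, the cells best known for these genes, also moved. The sum of 9 neuron markers was 174.1 ± 8.5 CPM in E5 FOLFIRINOX, 277.4 ± 12.99 CPM in E5 vehicle, 113.1 ± 4.4 CPM in control FOLFIRINOX and 366.3 ± 23.5 CPM in control vehicle. MAP2, a microtubule protein, gave 131.4, 222.6, 83.2 and 320.2 CPM of those sums. Of the neuron's own filament and growth markers NEFL was at 0 in all libraries and NEFM and STMN2 had 1 count each. Of the 5 neuron markers tested, 3 were lower with FOLFIRINOX and 1 was higher in each line. Over the whole tested set the drug called 27.3% lower and 25.0% higher in E5, and 32.7% lower and 32.6% higher in control. The part of these cells' wider expression changes in the gamma result was not tested.

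**Figure D2:**
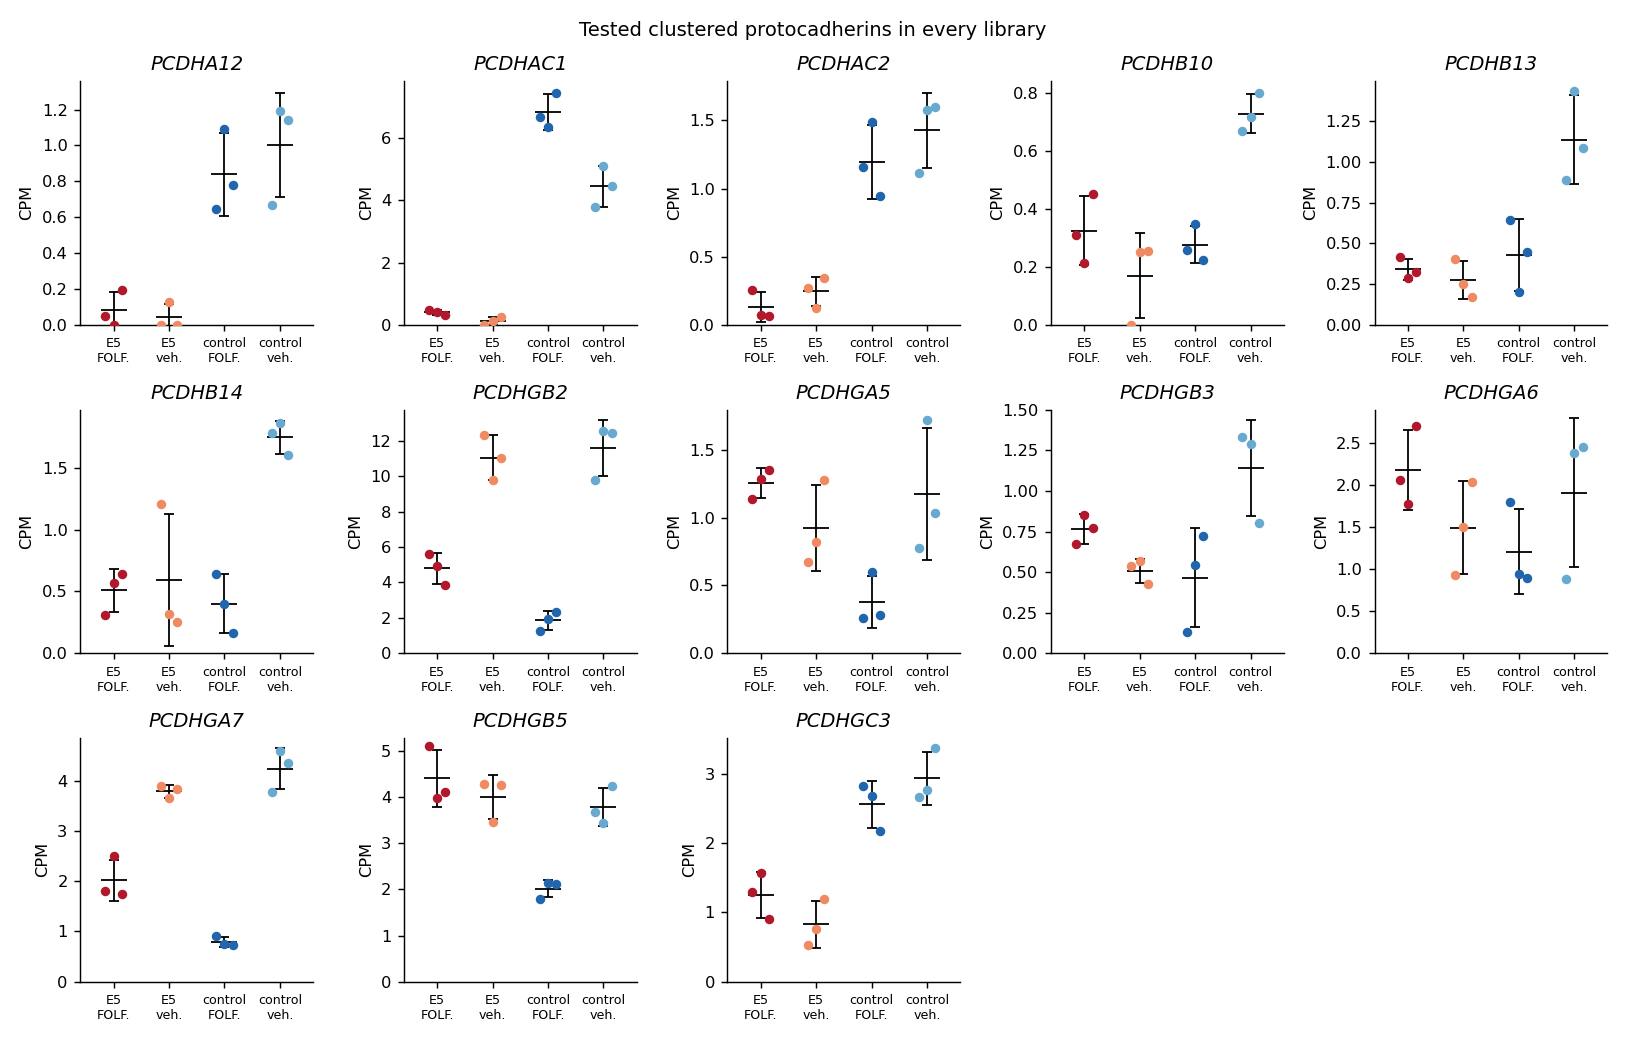
Level of each of the 13 tested members in each library, in TMM-scaled CPM on a vertical axis of its own per panel, with the groups from E5 FOLFIRINOX on the left to control vehicle on the right; points are libraries and lines are means with SD (n = 3). PCDHAC1 was at 0 to 0.465 CPM in E5 libraries and at 3.78 to 7.47 CPM in control libraries, and PCDHGB2 was lower with FOLFIRINOX in both lines.

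PCDHGB2 and PCDHGA7 fell with FOLFIRINOX in both lines, and fell further in control cells. PCDHGB2 (chr5:141360042-141512979), a gamma B gene, had 5.63, 4.91 and 3.86 CPM in E5 FOLFIRINOX and 12.3, 9.81 and 11.1 CPM in E5 vehicle. Control cells had 1.29, 1.94 and 2.34 CPM with FOLFIRINOX and 9.79, 12.6 and 12.47 CPM with vehicle. Its drug-treated groups overlapped neither each other nor the vehicle groups, which overlapped. The log2 fold change with FOLFIRINOX was -1.17 ± 0.16 in E5 (adjusted p = 1.3e-05) and -2.58 ± 0.18 in control cells (adjusted p = 2.8e-09). The difference of the responses was 1.41 ± 0.25 (adjusted p = 0.00068). PCDHGA7 (chr5:141382739-141512975), a gamma A gene, had 1.81, 2.49 and 1.74 CPM in E5 FOLFIRINOX and 3.88, 3.65 and 3.83 CPM in E5 vehicle. Control cells had 0.900, 0.744 and 0.725 CPM with FOLFIRINOX and 3.78, 4.58 and 4.35 CPM with vehicle. It showed the same order of groups, with log2 fold changes of -0.92 ± 0.18 in E5 (adjusted p = 0.00034) and -2.48 ± 0.20 in control cells (adjusted p = 1.5e-08), and a difference of 1.57 ± 0.28 (adjusted p = 0.00072). Under vehicle neither gene passed the test between E5 and control, with log2 fold changes of -0.12 ± 0.14 for PCDHGB2 (adjusted p = 0.54) and -0.20 ± 0.16 for PCDHGA7 (adjusted p = 0.33). Under FOLFIRINOX E5 was higher by 1.29 ± 0.21 (adjusted p = 4.8e-05) and 1.37 ± 0.23 (adjusted p = 9.3e-05).

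PCDHGB5 (chr5:141397987-141512979), another gamma B gene, passed the test for a drug change in control cells only. It had 5.12, 3.99 and 4.12 CPM in E5 FOLFIRINOX and 4.29, 3.46 and 4.26 CPM in E5 vehicle. Control cells had 1.80, 2.13 and 2.12 CPM with FOLFIRINOX and 3.67, 3.44 and 4.23 CPM with vehicle. Control FOLFIRINOX alone stood apart from the other groups. The log2 fold change with FOLFIRINOX was 0.18 ± 0.16 in E5 (adjusted p = 0.36) and -0.87 ± 0.18 in control cells (adjusted p = 0.00037). The responses differed by 1.05 ± 0.24 (adjusted p = 0.0041). PCDHGA5, a gamma A gene, had 1.14, 1.28 and 1.35 CPM in E5 FOLFIRINOX and 0.670, 0.817 and 1.28 CPM in E5 vehicle. Control cells had 0.257, 0.595 and 0.279 CPM with FOLFIRINOX and 0.778, 1.72 and 1.03 CPM with vehicle. It was lowest in control FOLFIRINOX too, with a log2 fold change of -1.60 ± 0.38 against control vehicle (adjusted p = 0.0015), 0.41 ± 0.34 in E5 (adjusted p = 0.34) and a difference of 2.01 ± 0.52 (adjusted p = 0.009).

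PCDHGA6 and PCDHGB3 lay close to the threshold. PCDHGA6 had 2.07, 1.78 and 2.70 CPM in E5 FOLFIRINOX, 0.938, 1.51 and 2.04 CPM in E5 vehicle, 1.80, 0.943 and 0.892 CPM in control FOLFIRINOX and 0.890, 2.39 and 2.46 CPM in control vehicle. PCDHGB3 had 0.672, 0.855 and 0.772 CPM in E5 FOLFIRINOX, 0.536, 0.566 and 0.426 CPM in E5 vehicle, 0.129, 0.546 and 0.725 CPM in control FOLFIRINOX and 1.33, 1.29 and 0.801 CPM in control vehicle. The control FOLFIRINOX and control vehicle libraries of PCDHGA6 overlapped, and 1 library of each stood with the other group. The log2 fold change with FOLFIRINOX in control cells was -0.95 ± 0.34 for PCDHGA6 (adjusted p = 0.02) and -1.04 ± 0.35 for PCDHGB3 (adjusted p = 0.014). The PCDHGA6 call was lost without any one of control FOLFIRINOX 2, control FOLFIRINOX 3, control vehicle 2 or control vehicle 3, with an adjusted p of up to 0.094. It was also lost with DESeq2, on log2(FPKM + 1), on log2(FPKM + 0.1) and on rlog values. The PCDHGB3 call was lost without control vehicle 2 (adjusted p = 0.084). In E5 cells neither passed, with 0.49 ± 0.33 for PCDHGA6 (adjusted p = 0.22) and 0.56 ± 0.40 for PCDHGB3 (adjusted p = 0.26). Under FOLFIRINOX E5 was above control for PCDHGA5 by 1.58 ± 0.38 (adjusted p = 0.0022), for PCDHGB5 by 1.11 ± 0.17 (adjusted p = 3.5e-05) and for PCDHGA6 by 1.01 ± 0.33 (adjusted p = 0.016). That PCDHGA6 call was lost without control FOLFIRINOX 2, control FOLFIRINOX 3 or E5 FOLFIRINOX 3 (adjusted p of up to 0.068). It was also lost on log2(FPKM + 1) and log2(FPKM + 0.1). PCDHGB3 was lower in E5 under vehicle by a log2 fold change of -1.12 ± 0.38 (adjusted p = 0.023). This call was lost without control vehicle 1, control vehicle 2, E5 vehicle 2 or E5 vehicle 3 (adjusted p of up to 0.11). It was also lost with DESeq2 and on log2(FPKM + 0.1). PCDHGB3 had all libraries above the filter in E5 FOLFIRINOX and control vehicle only, which favours lower values in the other groups.

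The C-type gamma gene PCDHGC3 (chr5:141475947-141512977) was lower in E5 under both treatments, whereas the sum of its cluster was higher in E5 under FOLFIRINOX. It had 1.29, 1.57 and 0.901 CPM in E5 FOLFIRINOX and 0.536, 0.754 and 1.19 CPM in E5 vehicle. Control cells had 2.83, 2.68 and 2.17 CPM with FOLFIRINOX and 2.67, 2.77 and 3.38 CPM with vehicle. All 6 E5 libraries were under all 6 control libraries. The log2 fold change of E5 against control was -1.01 ± 0.24 under FOLFIRINOX (adjusted p = 0.0016) and -1.79 ± 0.27 under vehicle (adjusted p = 3.5e-05). The drug changed it by 0.54 ± 0.31 in E5 (adjusted p = 0.16) and -0.24 ± 0.20 in control cells (adjusted p = 0.31), which did not pass. The authors' FPKM values, whose program is not given, put PCDHGC3 elsewhere: they averaged 1.34 ± 0.52 in E5 FOLFIRINOX, 3.01 ± 0.75 in E5 vehicle, 2.29 ± 0.59 in control FOLFIRINOX and 3.25 ± 0.71 in control vehicle (SD, n = 3). On log2(FPKM + 1) the vehicle difference between the lines was -0.09 and no longer called. This gene's line difference under vehicle thus holds for the counts and not for the FPKM. Under FOLFIRINOX the line difference lost its call on log2(FPKM + 1) and kept it on log2(FPKM + 0.1). PCDHGC4 had 11 counts in all libraries and PCDHGC5 had 43, namely 12 in E5 FOLFIRINOX, 6 in E5 vehicle, 19 in control FOLFIRINOX and 6 in control vehicle. Neither passed the filter on counts. In a fit with no filter neither was called in any of the 5 comparisons, and the smallest adjusted p was 0.057, for PCDHGC5 with FOLFIRINOX in control cells (log2 fold change 1.59).

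Counted over the 13 tested members, FOLFIRINOX in control cells was called higher for 1 and lower for 9, where 32.6% of all tested genes were called higher and 32.7% lower. In E5 cells 1 was called higher and 2 lower, against 25.0% of all tested genes higher and 27.3% lower. The share of members called was thus below that of all genes. E5 against control under vehicle gave 0 higher and 8 lower, against 22.1% higher and 22.2% lower among all genes; 0 members were higher at an unadjusted p under 0.05 too, and 0 with DESeq2. E5 against control under FOLFIRINOX gave 5 higher and 4 lower, against 26.7% higher and 27.6% lower. Because many members reach the filter only through the group where they are high, these counts describe the 13 genes and are no support for a statement on the 59. The members' median log2 fold change was -1.04 with FOLFIRINOX in control cells, 0.42 in E5 cells, -1.79 for E5 against control under vehicle and 0.48 under FOLFIRINOX, where the median over all genes was between -0.01 and 0.01 in each.

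**Figure D3:**
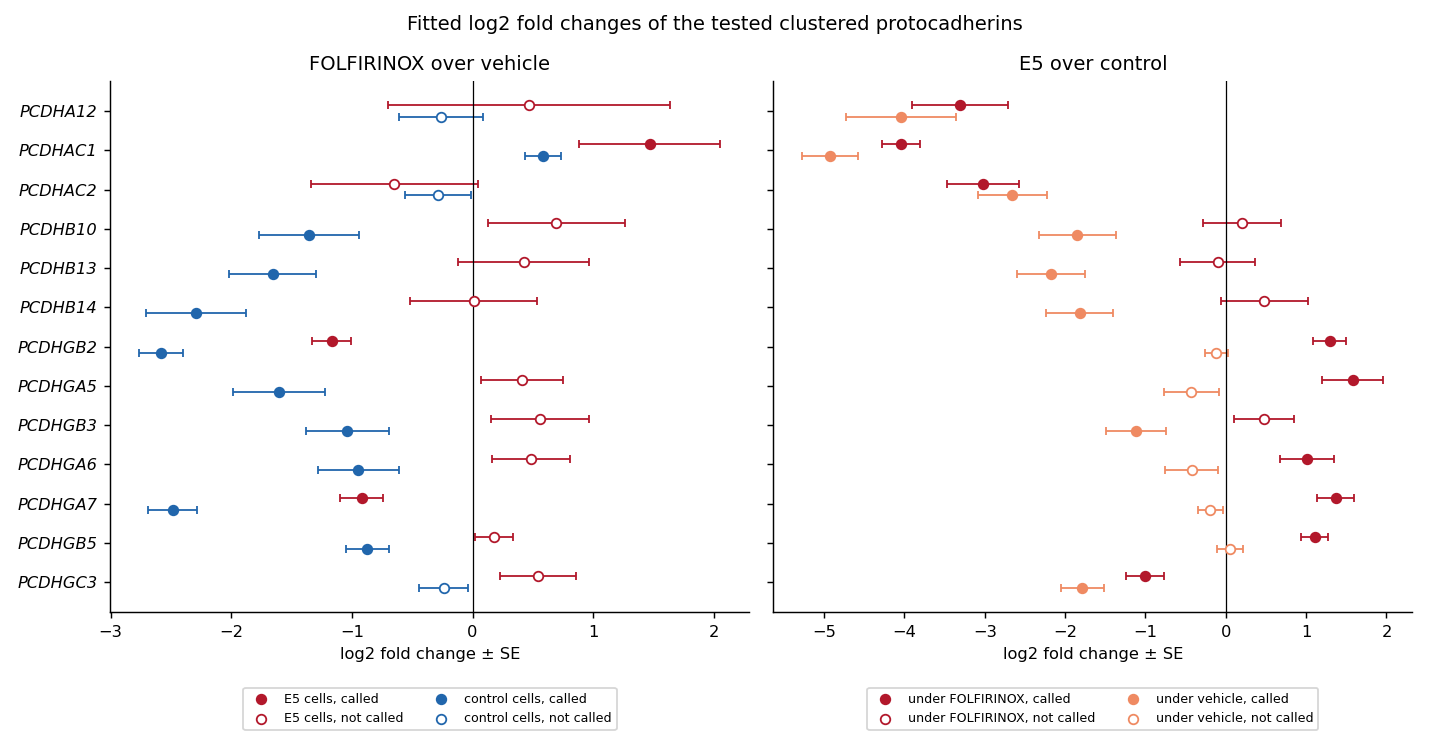
Fitted log2 fold change of each tested member with its SE, for FOLFIRINOX over vehicle in E5 and in control cells (left) and for E5 over control under FOLFIRINOX and under vehicle (right); filled points have an adjusted p under 0.05. The alpha genes lie left of 0 in both comparisons of E5 with control, and PCDHGB2 and PCDHGA7 lie left of 0 with FOLFIRINOX in both lines, further left in control cells (-2.58 and -2.48) than in E5 cells (-1.17 and -0.92).

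The difference of the 2 drug responses was itself called for 9 of the 13 members, 9 with a higher value in E5 than in control cells and 0 lower (0 also at an unadjusted p under 0.05 and with DESeq2), against 13.3% higher and 12.4% lower among all genes. Every one of these had a negative response in control cells. For PCDHB10, PCDHB13 and PCDHB14 control vehicle was the one group with all libraries above the filter. This favours a fall in control cells and a difference of this sign, so their 3 calls are a description. PCDHGB3 had all libraries above the filter in E5 FOLFIRINOX and control vehicle only. That favours the same sign, so its call is a description too. Of the 10 members other than the 3 beta genes 6 were called, PCDHGB3 among them. PCDHGB2, PCDHGA7 and PCDHGB5 kept the call with each library left out in turn and in every other setting tried. PCDHGA5 kept it with each library left out and lost it on log2(FPKM + 1). The beta genes PCDHB14 (2.30 ± 0.70, adjusted p = 0.023), PCDHB13 (2.08 ± 0.66, adjusted p = 0.028) and PCDHB10 (2.05 ± 0.70, adjusted p = 0.041) and the gamma genes PCDHGA6 (1.43 ± 0.47, adjusted p = 0.033) and PCDHGB3 (1.59 ± 0.53, adjusted p = 0.036) each lost it without some single libraries. The count was 4 without E5 vehicle 2, and 5 without control vehicle 2, without E5 FOLFIRINOX 3 or without E5 vehicle 3. No alpha gene and not PCDHGC3 was called.

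The makeup of the alpha and gamma clusters differed between the groups. PCDHAC1 gave 38.5% of all alpha counts in E5 FOLFIRINOX, 14.7% in E5 vehicle, 72.0% in control FOLFIRINOX and 53.7% in control vehicle. PCDHGB2 gave 24.7% of all gamma counts in E5 FOLFIRINOX, 45.2% in E5 vehicle, 16.6% in control FOLFIRINOX and 40.6% in control vehicle, whereas PCDHGB5 gave 22.7%, 16.4%, 17.4% and 12.8% in the same order. PCDHGC3 gave 6.33%, 3.59%, 21.0% and 10.1%. Counted per kilobase of exon that no other gene shares, the order of levels differed by group. In E5 FOLFIRINOX the highest level among all members was that of PCDHGB2 at 1.86 CPM per kb, followed by PCDHGB5 at 1.65 CPM per kb. PCDHGB2 led in E5 vehicle at 4.27 CPM per kb with PCDHGB5 at 1.5 CPM per kb, and in control vehicle at 4.49 CPM per kb with PCDHGB5 at 1.42 CPM per kb. In control FOLFIRINOX PCDHAC1 led at 1.68 CPM per kb, with PCDHGC3 at 0.788, PCDHGB5 at 0.755 and PCDHGB2 at 0.716 CPM per kb. In E5 vehicle the same measure was 0.0312 CPM per kb for PCDHAC1 and 0.254 CPM per kb for PCDHGC3. The authors' FPKM gave another order under FOLFIRINOX. In control FOLFIRINOX PCDHGC3 averaged 2.29, PCDHAC2 2.17 and PCDHAC1 1.65 FPKM, and in E5 FOLFIRINOX PCDHGB5 averaged 1.78 and PCDHGB2 1.62 FPKM. PCDHGB2 led in the vehicle groups by FPKM too, at 3.71 in E5 and 3.72 in control cells.

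**Figure D4:**
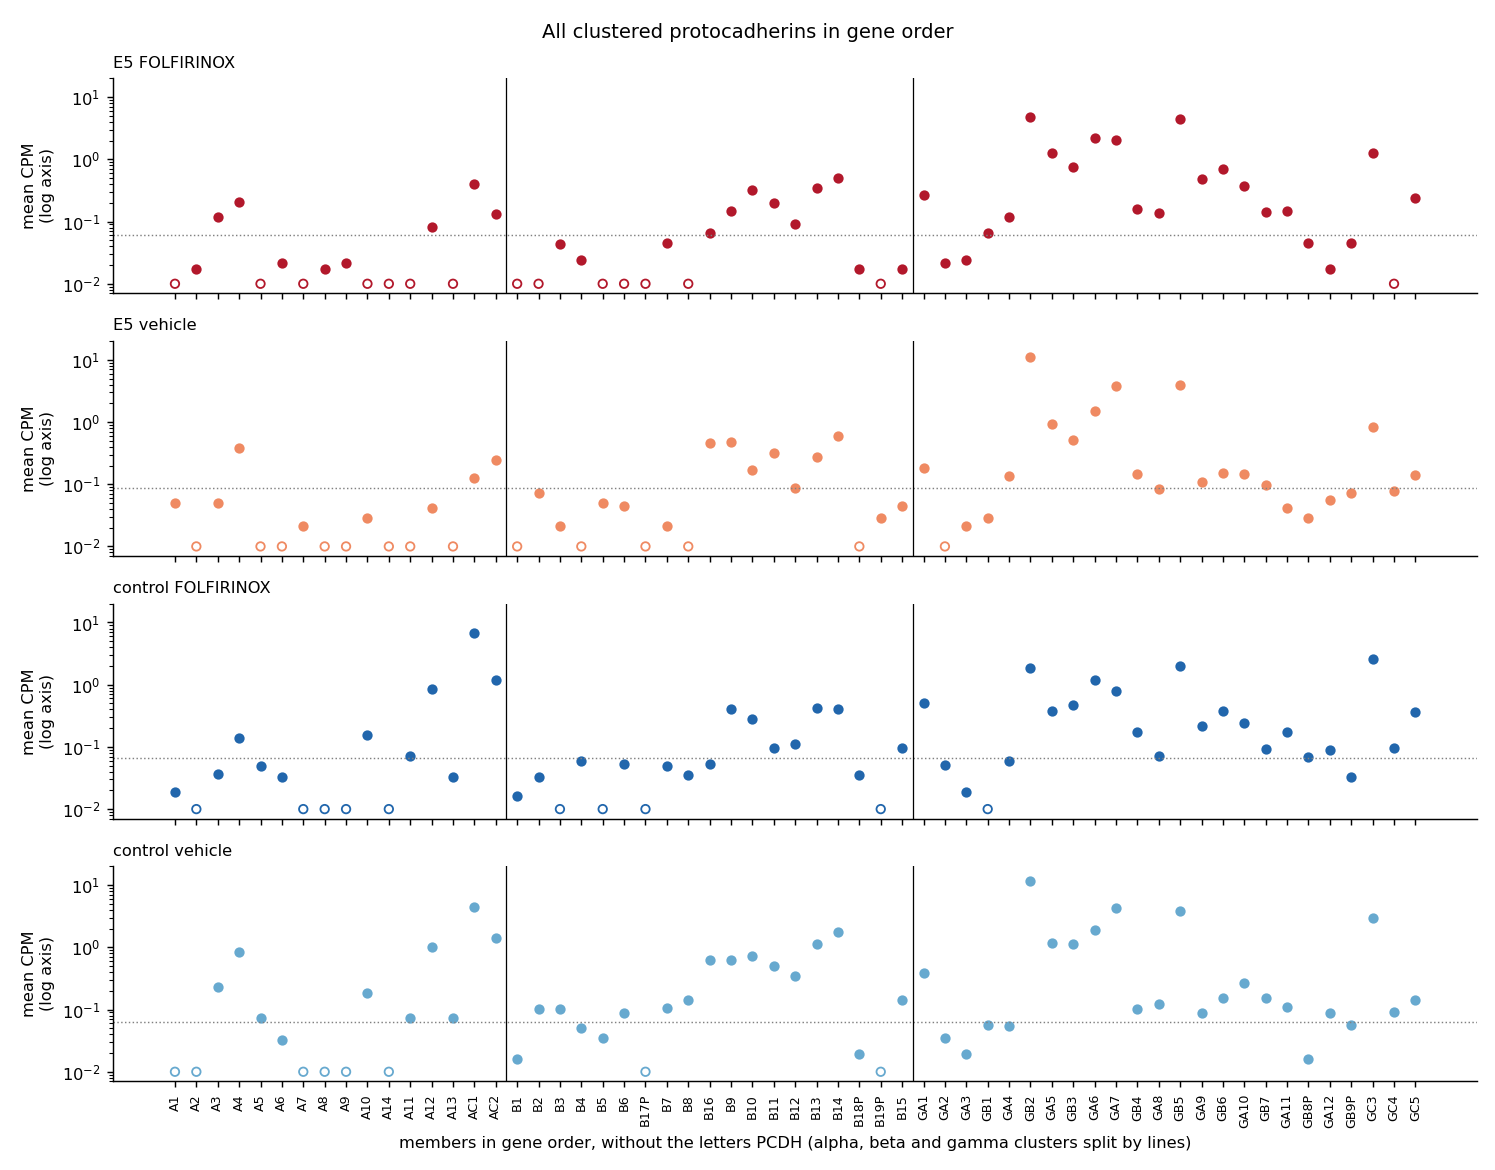
Mean level of all 59 members in gene order, in TMM-scaled CPM on a log axis, with a panel per group from E5 FOLFIRINOX at the top to control vehicle at the bottom; open circles are members with 0 counts, the dotted line is the level of 3 counts over the group, and vertical lines split the clusters. PCDHGB2 is among the highest members in every group, whereas PCDHAC1 is high in both control groups only, at 3.78 CPM or more in each of their libraries.

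The members under the filter were few counts each. A fit with no filter, over 35563 genes and 57 members, called 1 member higher and 12 lower with FOLFIRINOX in control cells, against 14.7% of all genes higher and 15.2% lower. In E5 cells it called 2 higher and 4 lower, against 11.1% and 11.3%. For E5 against control it called 0 higher and 8 lower under vehicle, against 9.68% and 9.47%, and 5 higher and 5 lower under FOLFIRINOX, against 13.1% and 11.3%. The adjusted p-values of this fit are on another scale than those above. For PCDHGB2 with FOLFIRINOX in control cells it gave 1.9e-51, against 2.8e-09 with the filter. For PCDHAC1 with FOLFIRINOX in E5 cells it gave 0.087, against 0.045. Its p-values for genes of few counts are thus a description and a weak guide to the spread between libraries. The following genes were called in this fit only and are named after their values were seen. PCDHA4 had 11 counts in E5 FOLFIRINOX, 13 in E5 vehicle, 5 in control FOLFIRINOX and 38 in control vehicle, with a log2 fold change of -2.82 with FOLFIRINOX in control cells (adjusted p = 8.4e-06). PCDHB16 had 3, 15, 3 and 27 counts in the same order of groups. With FOLFIRINOX it was lower by a ratio of 6.96 in E5 (95% counting interval 1.97 to 37.5, adjusted p = 0.005) and of 8.71 in control cells (2.68 to 44.9, adjusted p = 0.00012). The gamma genes PCDHGB6, with 34, 5, 16 and 8 counts, and PCDHGA9, with 23, 3, 8 and 4 counts, were higher with FOLFIRINOX in E5 cells. The log2 fold change was 2.22 for PCDHGB6 (adjusted p = 0.002), and PCDHGA9 had a ratio of 5.50 with a counting interval of 1.66 to 28.6 (adjusted p = 0.013). With FOLFIRINOX PCDHB11, with 10, 10, 4 and 24 counts, was lower in control cells (log2 fold change -2.46, adjusted p = 0.0017). PCDHB9, with 8, 20, 20 and 33 counts, was called lower with the drug in E5 cells (-1.72, adjusted p = 0.017). It had 0.258, 0 and 0.193 CPM in E5 FOLFIRINOX and 0.268, 1.01 and 0.170 CPM in E5 vehicle. That call rests on E5 vehicle 2, and the other libraries overlapped. PCDHA10, with 0 counts in E5 FOLFIRINOX and 6 in control FOLFIRINOX, was called lower in E5 under FOLFIRINOX (adjusted p = 0.049).

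Genes of CTCF and of cohesin, the ring that CTCF stops on DNA, were more often lower than higher in E5 cells under vehicle. Of 15 such genes, all tested, 0 were called higher (0 also at an unadjusted p under 0.05 and with DESeq2) and 10 lower, where 22.1% of all tested genes were higher and 22.2% lower, with a median log2 fold change of -0.52 against -0.01 over all genes. SMC3, a core ring subunit of cohesin, changed by -1.25 ± 0.19 (adjusted p = 4e-05), ESCO1, which acetylates that subunit, by -0.81 ± 0.21 (adjusted p = 0.0042) and STAG2, a subunit that holds cohesin to DNA, by -0.76 ± 0.15 (adjusted p = 0.0005). Under FOLFIRINOX the count was 1 higher and 6 lower, against 26.7% and 27.6% of all genes. CTCF, named after its values were seen, averaged 91.8 ± 4.6 CPM in E5 FOLFIRINOX, 104.8 ± 0.73 CPM in E5 vehicle, 90.9 ± 1.0 CPM in control FOLFIRINOX and 153.2 ± 6.1 CPM in control vehicle. It was lower in E5 by a log2 fold change of -0.55 ± 0.06 under vehicle (adjusted p = 7e-07). With FOLFIRINOX 1 of the 15 genes was called higher and 7 lower in control cells, where 32.6% and 32.7% of all genes were called. Among the lower ones were CTCF at -0.75 ± 0.06 (adjusted p = 8.7e-09) and STAG1, the alternative of STAG2, at -1.28 ± 0.10 (adjusted p = 6.3e-09). SGO1, the protector of cohesin at centromeres, rose by 0.80 ± 0.10 (adjusted p = 1.4e-06). In E5 cells it was 2 higher and 3 lower, against 25.0% and 27.3% of all genes, and SMC3 rose by 0.55 ± 0.19 (adjusted p = 0.022), a call lost without E5 FOLFIRINOX 3 or E5 vehicle 1.

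Of 17 genes of DNA methylation and of the silencing of these clusters, 1 was higher and 8 lower in E5 against control under vehicle, where 22.1% of all tested genes were higher and 22.2% lower. TET1, which oxidises methylated cytosine, changed by -1.04 ± 0.16 (adjusted p = 5e-05), HELLS, a remodeller needed for DNA methylation, by -0.89 ± 0.12 (adjusted p = 1.4e-05), and SMCHD1, a repressor of these clusters in mice, by -0.78 ± 0.14 (adjusted p = 0.00022). Under FOLFIRINOX it was 5 higher and 7 lower, against 26.7% and 27.6% of all genes. The drug called 1 higher and 10 lower in E5 cells, against 25.0% and 27.3%, with DNMT3A, a DNA methyltransferase that acts on unmethylated sites, at -0.71 ± 0.07 (adjusted p = 4.5e-07). It called 2 higher and 12 lower in control cells, against 32.6% and 32.7%, with TRIM28, a corepressor that recruits histone methylation, at -0.81 ± 0.08 (adjusted p = 1.1e-07).

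Of 13 tested genes of 14 that bind or cut the protein tails, 2 were higher and 2 lower in E5 against control under vehicle, under the 22.1% and 22.2% of all genes. FYN, a kinase found on alpha tails, was higher by 0.61 ± 0.12 (adjusted p = 0.00038). PDCD10, a gamma tail partner, and PTK2, a focal adhesion kinase that alpha and gamma tails inhibit, were lower by log2 fold changes of -0.51 ± 0.11 (adjusted p = 0.00082) and -0.37 ± 0.06 (adjusted p = 4.4e-05). For E5 against control under FOLFIRINOX 5 were higher and 2 lower, against 26.7% and 27.6% of all genes. For the drug in E5 1 was higher and 4 lower, against 25.0% and 27.3%, and NCSTN, a subunit of the tail-cutting gamma-secretase, changed by -0.98 ± 0.07 (adjusted p = 1.5e-08). For the drug in control cells they were 3 higher and 6 lower, against 32.6% and 32.7%, and PTK2B, the kinase related to PTK2, changed by -1.13 ± 0.28 (adjusted p = 0.0018).

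The WAVE complex, which drives actin branching and binds alpha tails, had all 9 genes tested, with 4 higher and 3 lower in E5 under vehicle and 5 higher and 2 lower under FOLFIRINOX. Of all tested genes 22.1% were higher and 22.2% lower under vehicle, and 26.7% and 27.6% under FOLFIRINOX. CYFIP2, one of its 2 alternative large subunits, averaged 23.5 ± 3.9 CPM in E5 FOLFIRINOX, 24.2 ± 3.5 CPM in E5 vehicle, 2.96 ± 0.01 CPM in control FOLFIRINOX and 10.5 ± 1.1 CPM in control vehicle. It was higher in E5 by 1.19 ± 0.13 under vehicle (adjusted p = 1.3e-06) and 2.99 ± 0.16 under FOLFIRINOX (adjusted p = 8.3e-11). It fell with the drug by a log2 fold change of -1.82 ± 0.17 in control cells (adjusted p = 1e-07). WASF2 was higher by 0.25 ± 0.06 (adjusted p = 0.0034) and WASF3 lower by a log2 fold change of -0.36 ± 0.08 (adjusted p = 0.0024) in E5 under vehicle; both activate branching. The drug gave 2 higher and 3 lower in E5, against 25.0% and 27.3% of all genes, with BRK1, the smallest subunit, up by 0.40 ± 0.06 (adjusted p = 1.7e-05). In control cells it gave 2 higher and 5 lower, against 32.6% and 32.7%, with CYFIP1 at -0.81 ± 0.07 (adjusted p = 2e-08).

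Related protocadherins outside the clusters also differed between the lines. Of 24 non-clustered protocadherins and their giant relatives 11 were tested, and in E5 under vehicle 4 were higher and 5 lower, where 22.1% of all tested genes were higher and 22.2% lower. FAT2, a giant cadherin of epithelia, averaged 3.81 ± 0.25 CPM in E5 FOLFIRINOX, 9.16 ± 1.5 CPM in E5 vehicle, 0.388 ± 0.22 CPM in control FOLFIRINOX and 0.153 ± 0.14 CPM in control vehicle. It was higher in E5 by 5.52 ± 0.31 under vehicle (adjusted p = 1.8e-10). PCDH15, known from the tip links of inner ear hair cells, averaged 0.347 ± 0.022 CPM, 0.310 ± 0.11 CPM, 3.38 ± 0.56 CPM and 8.96 ± 0.91 CPM in the same order of groups, and was lower in E5 by a log2 fold change of -4.91 ± 0.25 under vehicle (adjusted p = 4.6e-11). PCDH18, a delta protocadherin, was lower by a log2 fold change of -2.46 ± 0.27 (adjusted p = 7.9e-07). By their group means FAT2 passed the filter through the E5 groups only and PCDH15 and PCDH18 through the control groups only, so these 3 genes had to differ between the lines in those directions. Under FOLFIRINOX 5 were higher and 4 lower in E5, against 26.7% and 27.6% of all genes. The drug gave 0 higher (1 at an unadjusted p under 0.05, 0 with DESeq2) and 6 lower in E5, against 25.0% and 27.3%, with CELSR1, a planar polarity cadherin, at -0.99 ± 0.11 (adjusted p = 1.2e-06). In control cells it gave 0 higher (0 also at an unadjusted p under 0.05 and with DESeq2) and 7 lower, against 32.6% and 32.7%, with its relative CELSR2 at -2.35 ± 0.15 (adjusted p = 6.7e-10).

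Of 80 genes within 500 kb of the outer members or between the clusters, 27 were tested, and 2 were higher and 4 lower in E5 under vehicle, with 21 not called. Of all tested genes 22.1% were higher and 22.2% lower. Under FOLFIRINOX 1 was higher and 11 lower, against 26.7% and 27.6%. The nearest tested gene before the alpha cluster, ZMAT2, a splicing factor, averaged 140.4 ± 13.1 CPM in E5 FOLFIRINOX, 144.1 ± 1.8 CPM in E5 vehicle, 138.6 ± 6.1 CPM in control FOLFIRINOX and 137.5 ± 5.6 CPM in control vehicle. DIAPH1, an actin nucleator just past the gamma cluster, fell with FOLFIRINOX by log2 fold changes of -0.57 ± 0.06 in E5 (adjusted p = 8.7e-07) and -0.54 ± 0.06 in control cells (adjusted p = 7.2e-07). TAF7, a subunit of the general factor TFIID between the beta and gamma clusters, rose by 0.39 ± 0.06 in control cells (adjusted p = 1.4e-05). With the drug, 5 of the 27 were higher and 8 lower in E5 cells, against 25.0% and 27.3% of all genes, and 9 higher and 8 lower in control cells, against 32.6% and 32.7%.

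The 3 tested non-coding RNAs between and inside the clusters were highest in control FOLFIRINOX. AC005618.4 (chr5:141320980-141325985) averaged 1.24 ± 0.28 CPM in E5 FOLFIRINOX, 0.731 ± 0.20 CPM in E5 vehicle, 3.43 ± 0.64 CPM in control FOLFIRINOX and 0.797 ± 0.30 CPM in control vehicle. It lies between the beta and gamma clusters, as does AC005618.1 (chr5:141326210-141329357), with 0.895 ± 0.25, 0.428 ± 0.24, 3.11 ± 0.34 and 0.621 ± 0.26 CPM in the same order of groups. With FOLFIRINOX in control cells the log2 fold change was 2.25 ± 0.25 for AC005618.4 (adjusted p = 7e-07) and 2.24 ± 0.29 for AC005618.1 (adjusted p = 3.4e-06). Under FOLFIRINOX E5 was lower than control by log2 fold changes of -1.51 ± 0.22 (adjusted p = 2.5e-05) and -1.81 ± 0.27 (adjusted p = 2.4e-05). AC005609.3 (chr5:140875346-140875922) is antisense to PCDHA12, all 577 of its exon bases facing an exon of that gene. It had 0 counts in E5 FOLFIRINOX, 0 in E5 vehicle, 34 in control FOLFIRINOX and 6 in control vehicle, so that it was at least 12.1-fold lower in E5 than in control under FOLFIRINOX, against a floor of 3 counts over the E5 group. Its log2 fold change with FOLFIRINOX in control cells was 2.48 ± 0.46 (adjusted p = 0.00037). It passed the filter only through control FOLFIRINOX, with 0.772, 0.645 and 0.836 CPM there, and so had to be higher in that group. AC005609.3 and AC005618.4 were named after their values were seen. The count table is stranded, and the part of misassigned antisense reads in these values was not tested.

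**Figure D5:**
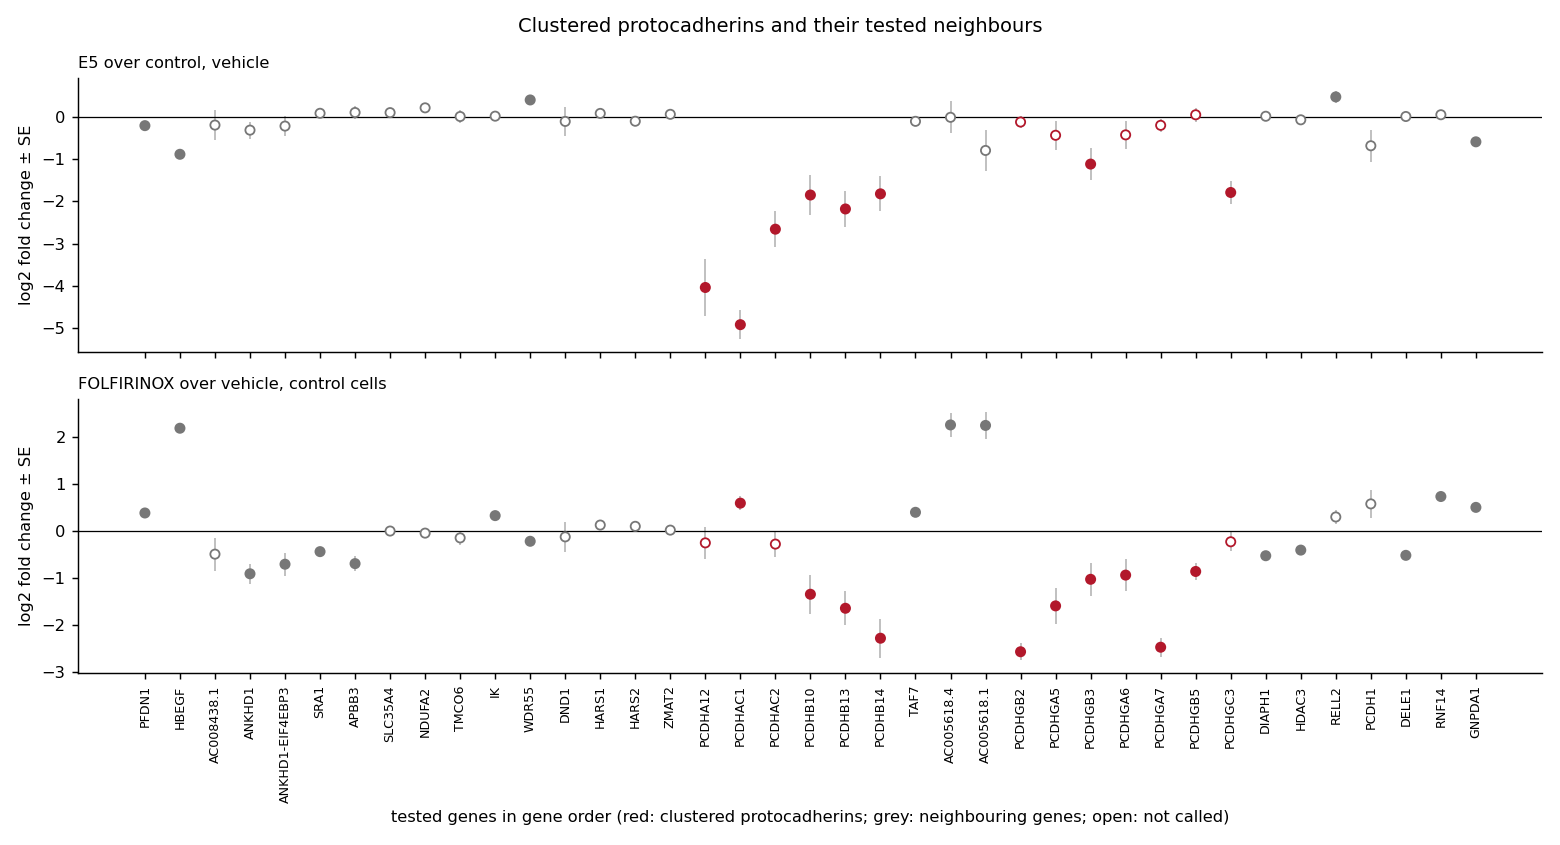
Log2 fold change with SE of the tested clustered protocadherins (red) and their tested neighbours (grey) in gene order, for E5 over control under vehicle (top) and FOLFIRINOX over vehicle in control cells (bottom); open points were not called, and AC005609.3, with 0 counts in E5, is left out. In the top panel the neighbours shown lie between -0.88 and 0.48, while PCDHAC1 lies at -4.92; in the bottom panel AC005618.4 and AC005618.1 lie above 2 and PCDHGB2 at -2.58.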

How the data were processed

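Gene-level RNA-seq of 12 libraries, 3 per GEO sample, was analysed; per the labels' protocols, RNA was extracted by RNeasy and libraries followed KAPA's mRNA HyperPrep scheme. Reads were trimmed with Trimmomatic and aligned to GRCh38 with STAR 2.5.1b, per the submitters' processing notes. The authors deposited stranded counts per gene, which are raw and whole; the rows for unmapped, multimapping, unassigned and ambiguous reads were kept out of library sizes. The deposited FPKM and log2 (rlog) values served as alternatives only, and the program behind the FPKM and the annotation release are not given in the sources used here.

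Counts were fitted with edgeR 4.0.16 (R 4.3.3): TMM scaling, genes kept by filterByExpr (10 counts at the median library size, 0.623 CPM, in at least 3 libraries), 1 model of the 4 group means, quasi-likelihood tests of 5 contrasts, Benjamini-Hochberg adjustment over 15636 genes at 0.05. Limma 3.58.1 and DESeq2 1.42.0 were alternatives, together with other scalings and filters, a block of library numbers and leaving out each library. The edgeR fit was also run on simulated counts with the same spread for all genes, which is simpler than these libraries. No statement here rests on that run. Cluster sums add the counts of all members and carry no test. Depth was 7359034 to 21775030 reads, so a group total of 0 counts allows up to 0.0613 CPM in E5 FOLFIRINOX, 0.0854 in E5 vehicle, 0.0654 in control FOLFIRINOX and 0.0633 in control vehicle (3 counts); intervals and floors cover counting error only.

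The members, the gene and marker lists and the motifs were chosen with earlier results of these data known. Named in the text are all tested members, the C-type genes, of each list the 3 called genes with the greatest change between the lines under vehicle and 1 more per drug comparison, and the nearest tested genes beside each cluster; others are said to be chosen after their values were seen. Exons and strands come from GENCODE v29, promoters from RefSeq (GRCh38.p14). Protein sequences were not used here, and 1 leukocyte marker is not reported here.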

Additional observations from a re-analysis of the deposited data

Results flagged for a closer look

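The FOLFIRINOX response, as a log2 fold change, differed between E5 and control cells by edgeR's test of the difference itself (E5 minus control, Benjamini-Hochberg adjustment) for 9 clustered protocadherins. The differences were 2.30 for PCDHB14, 2.08 for PCDHB13, 2.05 for PCDHB10, 2.01 for PCDHGA5, 1.59 for PCDHGB3, 1.57 for PCDHGA7, 1.43 for PCDHGA6, 1.41 for PCDHGB2 and 1.05 for PCDHGB5. For PCDHB10, PCDHB13 and PCDHB14 control vehicle was the one group with all libraries above the filter on counts, which favours a difference of this sign. PCDHGB3 had all libraries above the filter in E5 FOLFIRINOX and control vehicle only, which favours the same sign. The smallest adjusted p was 0.00068 (PCDHGB2) and the largest 0.041 (PCDHB10). PCDHB10 lost the call without any one of 10 of the 12 libraries, PCDHGB3 without any one of 9, PCDHGA6 without any one of 7, and PCDHB13 and PCDHB14 without any one of 5.

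Among the other genes named, the same test gave differences of 1.29 for STAG1 (adjusted p = 5.1e-06) and 0.56 for CTCF (adjusted p = 0.00013), of -0.75 for FYN (adjusted p = 0.002), 0.32 for PTK2 (adjusted p = 0.0082) and 1.17 for PTK2B (adjusted p = 0.038), and of 1.80 for CYFIP2 (adjusted p = 1.7e-05) and 0.35 for CYFIP1 (adjusted p = 0.014). Of the non-clustered relatives it gave -2.01 for FAT2 (adjusted p = 0.032), 1.70 for PCDH15 (adjusted p = 0.021), 1.32 for CELSR2 (adjusted p = 9.2e-05) and 0.58 for CELSR1 (adjusted p = 0.014), and of the neighbouring non-coding RNAs -1.50 for AC005618.4 (adjusted p = 0.021). FAT2 averaged 0.388 and 0.153 CPM in control FOLFIRINOX and vehicle, and PCDH15 averaged 0.347 and 0.310 CPM in E5 FOLFIRINOX and vehicle. Those means lie under the filter of 0.623 CPM, so the response in that line rests on few counts. Single left-out libraries ended the call for PTK2B (8 of 12), FAT2 (4), PCDH15 (2) and AC005618.4 (2). FYN, PTK2, PTK2B, CYFIP1, PCDH15 and CELSR1 lost it on both FPKM scales. CYFIP2 and CELSR2 lost it on log2(FPKM + 1) and FAT2 on log2(FPKM + 0.1).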

How the results depend on the processing

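The number of members called was 10 with FOLFIRINOX in control cells, 3 in E5 cells, 8 for E5 against control under vehicle, 9 under FOLFIRINOX and 9 for the difference of the responses. With single libraries left out the counts ranged from 9 to 12, 2 to 5, 7 to 8, 8 to 9 and 4 to 7 in that order. In E5 cells the drug count was 6 with no filter, 2 of them shared, and 5 without E5 vehicle 3. For E5 against control under vehicle it was 5 with the stricter filter, which tests fewer members. The difference count was 5 with DESeq2, 5 on log2(FPKM + 1), 4 of them shared, and 5 on log2(FPKM + 0.1); the cause was not tested. Over all settings, 39 called member results gave 809 values, of which 721 kept direction and call, 88 lost the call and 0 changed sign.

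Signs changed only among uncalled member results (29 of 540 values) and for CELSR1. The drug change of PCDHAC2 in control cells was 0.30 on log2(FPKM + 1) and 0.43 on log2(FPKM + 0.1). In E5 cells it was -0.0050 for PCDHA12 on rlog values, and for PCDHB14 -0.0417 with DESeq2, -0.0201 with the block, -0.0463 and -0.17 on the 2 FPKM scales and -0.0224 on rlog values. PCDHGC3 in E5 cells was -0.79 on log2(FPKM + 1) (limma, adjusted p = 0.0071) and -1.16 on log2(FPKM + 0.1), and its difference of responses -0.42 and -0.67. The difference was -0.38, -0.18 and -0.27 for PCDHAC1 on the 2 FPKM scales and rlog, and -0.0753 and -0.0358 for CELSR1 on the FPKM scales. With single libraries left out, PCDHA12 ranged from -0.76 to 3.41 for the drug in E5 and from -0.49 to 3.67 for the difference, PCDHAC2 from -1.35 to 0.0369 for the difference, PCDHB14 from -0.36 to 0.75 for the drug in E5, PCDHB10 from -0.0544 to 0.48 and PCDHB13 from -0.52 to 0.15 for the lines under FOLFIRINOX, and PCDHGB5 from -0.0332 to 0.18 for the lines under vehicle.

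Same-numbered libraries did not deviate together (r of -0.1878 to 0.1484, 3 of 18 pairs over 0.1), so the numbers were not taken as pairs; a block of library numbers gave counts of 10, 2, 8, 9 and 7 in the order above. Scaling by total counts alone moved the median of all genes by 0.14 for the drug in control cells. The log2 ratio of the gamma sums for E5 over control under FOLFIRINOX was 0.72, 0.65 by total counts and 0.42 with FPKM, and that of the alpha sums under vehicle was -3.14 and -2.38 with FPKM. For FOLFIRINOX over vehicle the gamma ratio was -1.27 and -1.06 with FPKM in control cells, and -0.29 and -0.57 with FPKM in E5 cells. The alpha ratio for the drug in control cells was 0.17 and 0.35 with FPKM. The beta ratio for the lines under FOLFIRINOX was -0.24 and -0.04 with FPKM. Depth limits the members under 20 counts, 31 of 59.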
